A study of Mus musculus with 24 samples.

Results

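The clustered histone genes of the mouse are the protein-coding genes whose symbols begin with Hist1h, Hist2h, Hist3h or Hist4h, and every row of both deposited gene tables that met this rule was taken. The rule found 67 of 54532 genes, of which 6 encode H1, 18 H2A, 18 H2B, 12 H3 and 13 H4. Cluster 1 held 54 of them on chromosome 13, cluster 2 held 10 on chromosome 3, cluster 3 held 2 on chromosome 11 and cluster 4 held 1 on chromosome 6. Their levels were read in 24 libraries of polyadenylated RNA from C57BL/6J mice, in 6 groups of 4 libraries. Polr3a mutant and wild type mice were each sampled for cerebellum at postnatal day 42 (P42) and for cerebrum at both P42 and P75. The catalytic core of RNA polymerase III, the enzyme for transfer RNAs and other short RNAs but not for histone mRNA, includes the product of Polr3a. All mice, wild types included, received tamoxifen at P28, that is 14 days before P42 and 47 days before P75. At P42 each group held 2 males and 2 females, except the cerebellum wild types with 3 males and 1 female, and all P75 libraries came from males. The labels do not give the sequence change in Polr3a, and they name neither the recombinase that tamoxifen activates nor the cells in which it acts, and they leave unstated whether each library is its own animal, so the p-values measure the spread between libraries.

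H2A, H2B, H3 and H4 form the protein core around which DNA is wrapped, and H1 binds the linker between cores. Most clustered histone genes are switched on during DNA replication, and their mRNAs are the known exception among mRNAs of metazoans: they end in a short stem-loop, bound by the protein Slbp, and carry no polyA tail. Several of these genes also give a longer, polyadenylated transcript by reading on to a signal downstream of the stem-loop, mainly in cells that have stopped dividing. Libraries made by polyA enrichment are therefore meant to read the tailed forms of these transcripts. Carry-over of forms without a tail was not tested.

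The consensus of the histone stem-loop was searched on the sense strand after the stop codon of the longest transcript of each gene in GENCODE M21, whose coordinates were identical to those of the deposited tables for 67 of 67 members. It was present in 41 of the 54 members with annotated bases after the stop, and in 2 of 21139 other coding genes with such bases (H2afx and H2bfm). The sequences below are those of members on which the results turn, 5′ to 3′ in DNA letters, with the stem-loop in capitals and the bases beside it in lower case.
Hist1h1c: ccaaaaGGCTCTTTTCAGAGCCaccactcc
Hist1h2bk: accaaaGGCTCTTTTAAGAGCCactaaacc
Hist3h2ba: cccaaaGGCTCTTTTCAGAGCCaccttcca
Hist1h4h: accaaaGGCCCTTTTCAGGGCCgcccacat
Hist1h4i: cttaaaGGCCCTTTTTAGGGCCaccacaaa
Hist2h4: cctaacGGCCCTTTTTAGGGCCaaccacag
The loop started 24 bases after the stop codon in Hist1h1c, 32 in Hist1h2bk, 28 in Hist3h2ba, 31 in Hist1h4h, 30 in Hist1h4i and 38 in Hist2h4. The annotated transcript went on for a further 840 bases in Hist1h1c, 169 in Hist3h2ba, 330 in Hist1h4i and 1257 in Hist2h4, but for only 30 in Hist1h2bk and 46 in Hist1h4h. Over all members, 21 transcripts ran more than 100 bases past the stem-loop, 20 ended nearer to it, 16 ended within 40 bases of the stop codon without it, and 10 went further with no match to it.

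Total counts per library ranged from 13.8 to 23.2 times 1000000. Polr3a itself was at 31.6 ± 1.32 CPM (counts per 1000000 counts; mean ± SD, n = 4) in P75 mutants and 33.8 ± 3.59 in P75 wild types, and counts per gene do not read a change within the gene. Esr1, the gene of the oestrogen receptor on which tamoxifen acts, stood at 38.6 to 132 CPM in the mutants and at 1.53 to 9.68 CPM in the wild types over the 3 comparisons, without overlap. Markers of cerebellar neurons summed to means of 3300 and 3600 CPM in the cerebellum groups and of 199 to 248 CPM in the cerebrum groups. In cerebellum mutants 1 to 4 the sums were 5010, 2200, 4490 and 1520 CPM, against 2790 to 4340 CPM in the cerebellum wild types. CPM were computed after TMM scaling within a tissue and age.

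Few clustered histone genes supplied nearly all counts in wild type brain. Hist1h2bc, Hist1h1c, Hist3h2ba, Hist3h2a, Hist2h2be and Hist1h2be held 84.4% of the members' counts in wild type cerebrum at P75, 85.6% at P42 and 85.4% in wild type cerebellum. These 6 genes encode 4 copies of H2B, 1 of H1 and 1 of H2A. With at least 10 counts over the 4 libraries as the mark of detection, 22 of 67 members were detected in wild type cerebrum at P42, 24 in wild type cerebellum and 27 in wild type cerebrum at P75. The mutants held 31, 28 and 45. By class, the P75 mutants held 5 of 6 H1 genes against 4 in wild types, 8 of 18 H2A against 3, 14 of 18 H2B against 9, 6 of 12 H3 against 3 and 12 of 13 H4 against 8. Nearly all of this difference lay in cluster 1, with 39 of 54 members detected in P75 mutants and 22 in wild types. Hist4h4, the 1 member of cluster 4, crossed the mark with 16 counts in P75 mutants against 9 in wild types, while 3 of 10 members of cluster 2 and 2 of 2 of cluster 3 were detected in all 6 groups.

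Per kilobase of gene length, the 8 highest members over all libraries were Hist3h2ba at 24.1 CPM per kb, Hist1h2bc at 19.0, Hist1h1c at 17.2, Hist1h4k at 6.31, Hist1h4i at 5.30, Hist1h4h at 4.85, Hist3h2a at 4.06 and Hist2h2be at 3.45. The order differed with the group. In wild type cerebrum at P75 Hist3h2ba stood at 25.0 CPM per kb and Hist1h4i at 2.73, and in the mutants at 25.5 and 21.6. Hist3h2a shares exon bases with Trim17, a neighbouring coding gene on the same strand, so counts of these genes may not be separate. Trim17 itself held 1904 counts over the P75 mutants and 516 over the wild types.

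A further 7 members had 0 counts in all 24 libraries: Hist1h2aa, Hist1h2ap, Hist2h2aa1, Hist2h2aa2, Hist2h2bb, Hist2h3b and Hist2h3c1. The last 5 of these are the only members whose exons lie wholly inside exons of other annotated genes, and the only ones with no 50-base stretch that is absent from all other genes. Across all 67 members a median of 45.9% of 50-base windows was unique to the gene. The value was 7.9% for Hist1h2ah and 6.0% for Hist1h2af, 25.8% for Hist1h2bk and 45.9% for Hist1h3g. How the authors counted reads that fit several copies or overlapping genes is not given in the sources used here, so the split of counts between near-identical members is uncertain and a count of 0 does not show that a gene was silent.

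At P75 the members were higher in mutant cerebrum. Their summed level was 312, 239, 153 and 163 CPM in mutant libraries 1 to 4 and 112, 91.0, 111 and 109 CPM in wild type libraries 1 to 4. All mutants lay above all wild types, and the means were 217 ± 74.2 and 106 ± 9.91 CPM, a ratio of 2.05. The ratio differed between classes. It was 6.66 for H4 (49.9 ± 28.2 against 7.49 ± 1.23 CPM) and 4.44 for H3 (15.3 ± 7.14 against 3.45 ± 0.640 CPM). It was 2.21 for H1, 1.68 for H2A and 1.32 for H2B. In each class the 4 mutants lay above the 4 wild types. In the mutants the first 6 genes held 60.4% of the counts, and Hist1h4i had replaced Hist1h2be among them.

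**Figure D1:**
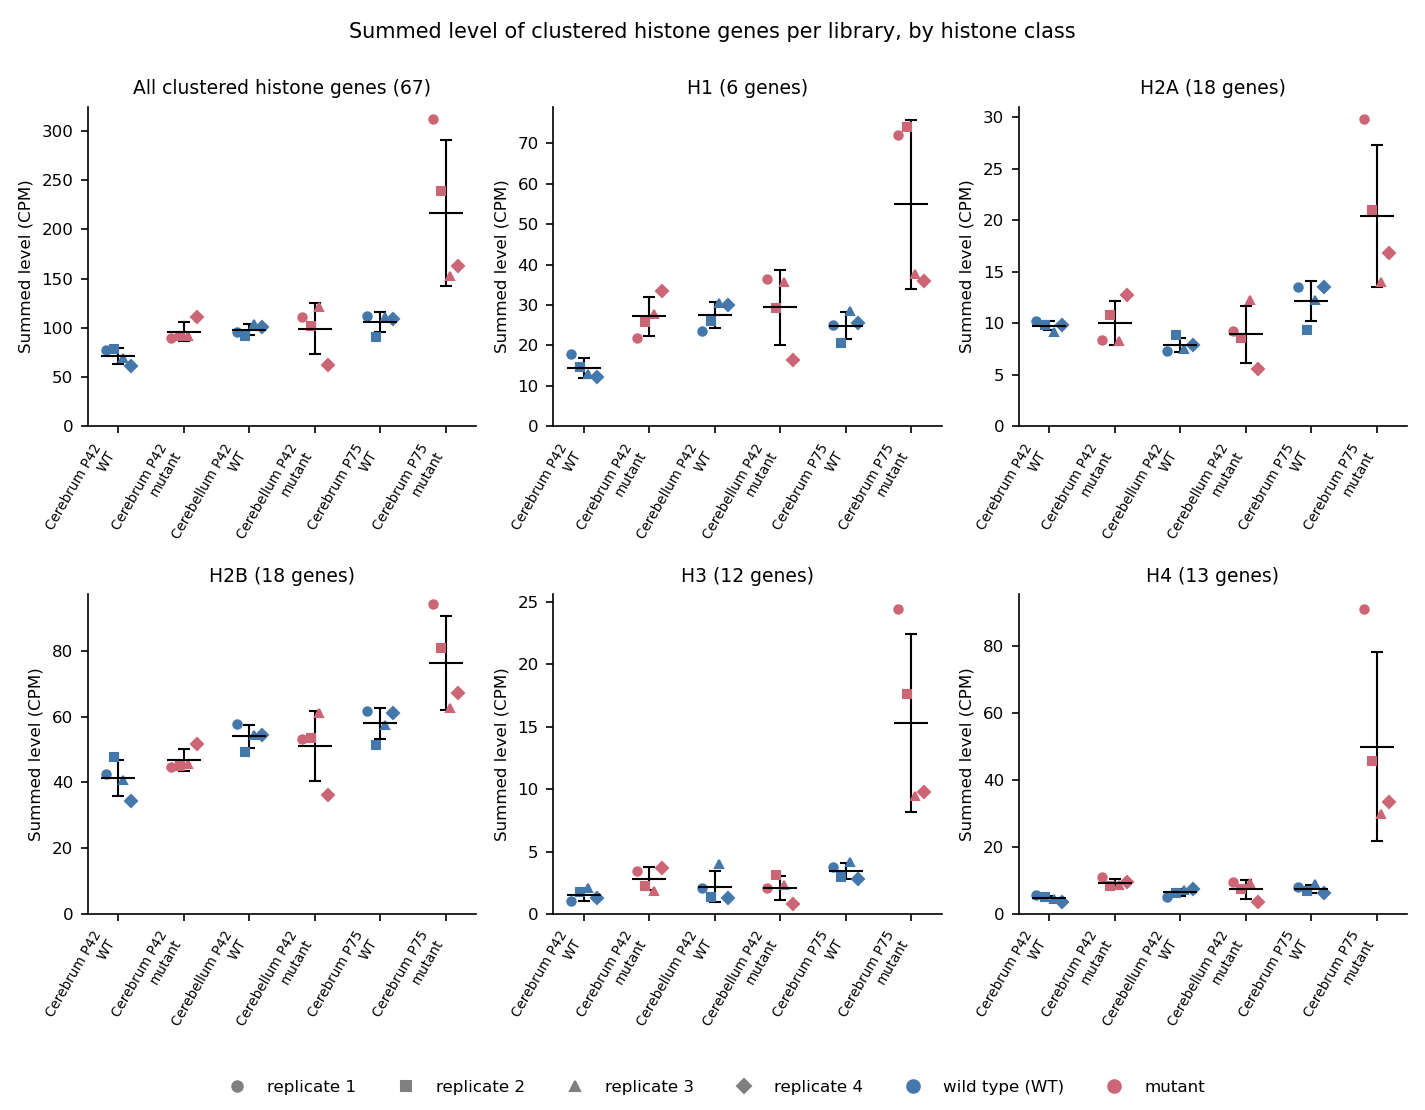
Summed level of all 67 clustered histone genes and of each class (vertical axis, CPM) in the 24 libraries by group; symbols mark the replicate, and the bar and whiskers give mean and SD of 4 libraries. The P75 mutants sit between 153 and 312 CPM for all members, above the P75 wild types at 91.0 to 112 CPM.

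Gene by gene, 16 of the 23 members that passed the filter on low counts rose in P75 mutants and none fell, at an adjusted p under 0.05 (edgeR quasi-likelihood test, Benjamini-Hochberg over all genes). Over all genes 7.66% of 17523 rose and 14.3% changed in either direction. The split over all genes was 1342 higher and 1160 lower, and with library size as the only scaling it was 2313 and 547, with the median of all genes at 0.108; the same scaling also gave 16 members, all higher. Of the 16, 9 had passed the filter only through the mutants, as did 10 of the 23 members tested, so the filter favoured their direction. The other 7 were Hist1h1c, Hist1h2ac, Hist1h4h, Hist1h4i, Hist1h4k, Hist2h3c2 and Hist2h4. Among the 13 members that the wild types alone would have kept, 7 rose, against 6.88% of 15688 genes kept in the same way, and their median log2 fold change was 0.79 against -0.012 for those genes. With 60 members that had any count at P75, 25 had all 4 mutants above all 4 wild types and 0 the reverse, where 6.71% of all genes with a count had the mutants above. Without mutant replicate 1 the fit called 12 members, and over all genes it called 7.62% of 17798 in place of 14.3%. The median log2 fold change of the members tested was then 1.58 in place of 2.3.

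All 7 H4 genes tested at P75 rose, of which Hist1h4i, Hist1h4h, Hist1h4k and Hist2h4 would have been kept by the wild types alone, while Hist1h4c, Hist1h4d and Hist1h4j passed the filter only through the mutants. Hist1h4i had 26.8, 13.3, 11.2 and 11.7 CPM in the mutants and 1.96, 0.934, 3.47 and 1.58 CPM in the wild types. The log2 fold change was 2.94 ± 0.35 (SE), with an adjusted p of 8.6e-05. Mutant 1 stood highest and the groups did not overlap. Hist2h4, the H4 gene of cluster 2, had 14.5, 9.74, 5.99 and 7.32 CPM against 1.70, 2.20, 1.51 and 2.24 (2.3 ± 0.27, adjusted p = 8.6e-05). Hist1h4k had 15.9, 4.34, 3.59 and 3.89 CPM against 1.51, 1.40, 1.41 and 0.921 (2.39 ± 0.46). Here mutant 1 held most of the difference, and without it the log2 fold change was 1.58. Hist1h4h rose by 2.61 ± 0.43, from 1.10 ± 0.325 to 6.88 ± 4.93 CPM. Hist1h4d, Hist1h4j and Hist1h4c, each with a wild type mean under 0.4 CPM, rose by 3.63 ± 0.61, 3.12 ± 0.46 and 2.80 ± 0.66.

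Among H1 genes, which encode linker histones, Hist1h1c had 64.0, 65.6, 33.8 and 31.1 CPM in the mutants and 23.6, 18.3, 26.3 and 23.1 CPM in the wild types. Its log2 fold change was 1.09 ± 0.22 (adjusted p = 0.00435), and mutants 1 and 2 stood apart from mutants 3 and 4. Hist1h1d rose from 5, 1, 6 and 1 counts to 55, 52, 23 and 34 (3.44 ± 0.50, adjusted p = 0.000431). It passed the filter only through the mutants, so the filter favoured its direction. Hist1h1e differed by 0.77 ± 0.29 (adjusted p = 0.0877), with groups that did not overlap, and is not called. It shares exon bases with Hist1h2be on the same strand, so counts of these genes may not be separate.

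The largest ratios were in genes that the wild types hardly showed. Hist1h2ah, an H2A gene, had 80, 56, 25 and 23 counts in the P75 mutants and 0 in each of the 4 wild types, which is at least 53.5-fold higher against a floor of 3 counts over the wild type group. Its neighbour Hist1h2bk, an H2B gene, had 146, 137, 71 and 34 counts against 0, 0, 1 and 1, a ratio of 169 with a 95% interval of 46.5 to 1400. Hist1h3g, an H3 gene, had 233, 186, 83 and 66 counts against 4, 0, 8 and 0 (log2 fold change 5.34 ± 0.62, adjusted p = 6.8e-05). In all 3 genes each mutant exceeded each wild type, and mutants 1 and 2 exceeded mutants 3 and 4. All 3 passed the filter only through the mutants, so the filter favoured their direction. The adjusted p was 0.000303 for Hist1h2ah and 1.9e-05 for Hist1h2bk, and the fitted values of 8.44 and 7.10 on the log2 scale depend on the small count that the fit adds, so the bound and the ratio are given in their place.

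The next members were too low to be tested, and were picked for 0 to 3 counts in the wild types and at least 10 in the mutants, so their direction was set by that choice. Hist1h2af had 58, 45, 15 and 6 counts in the mutants and 0 in the wild types, at least 36.0-fold higher. Hist1h1t, a linker histone known from testis, had 8, 9, 2 and 2 counts against 0, at least 6.10-fold higher, and Hist1h2ao had 11, 3, 2 and 0 against 0, at least 4.65-fold higher. Of the members with 1 to 3 wild type counts, Hist1h4n gave a ratio of 35.8 (95% interval 6.07 to 1450), Hist1h4f of 15.7 (2.48 to 654) and Hist1h3i of 13.7 (4.40 to 68.6). Hist1h4a gave 10.5 (1.55 to 447), Hist1h2bm 9.59 (1.39 to 413) and Hist1h2bp 6.98 (2.12 to 36.2). Every mutant exceeded every wild type in Hist1h2af, Hist1h1t, Hist1h4n and Hist1h3i, and the groups met or overlapped in the others. Mutant 1 was lowest among the mutants in Hist1h4n. These bounds and intervals hold for counting error alone, since reads that carry no molecular identifier may be copies of 1 molecule.

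Of the other H2A and H3 genes, Hist1h2ac rose by 1.95 ± 0.45 (adjusted p = 0.0101), Hist1h2ad by 2.80 ± 0.68 and Hist1h3d by 1.69 ± 0.48 on the log2 scale, and Hist1h3d kept an overlap between the groups. Hist1h2ad and Hist1h3d passed the filter only through the mutants. Hist2h3c2, called with the largest p of the 16 and named here after its values were seen, rose by 0.79 ± 0.24 (adjusted p = 0.0399). It missed the threshold when any 1 of mutant replicates 1, 2 and 4 or wild type replicates 1, 2 and 4 was left out. Hist1h3d missed it without mutant replicate 1 or 2 or wild type replicate 2 or 4, and Hist1h4c and Hist1h2ad missed it without mutant replicate 1.

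The genes that led in wild types were mostly not called at P75. Hist3h2ba had 15.7, 14.7, 13.9 and 18.2 CPM in the mutants and 16.5, 12.1, 16.2 and 16.4 CPM in the wild types, which differed by 0.03 ± 0.13 on the log2 scale (adjusted p = 0.925), and the groups overlapped throughout. Hist3h2a differed by -0.11 ± 0.18, Hist2h2be by 0.23 ± 0.14, Hist1h2bc by 0.26 ± 0.14 and Hist1h2be by 0.40 ± 0.22, with adjusted p from 0.234 to 0.743. Both members of cluster 3 were thus at a ratio near 1, and their sum was 25.5 ± 3.38 CPM in mutants and 26.0 ± 4.43 in wild types. Cluster 2 summed to 24.1 ± 5.63 against 13.4 ± 0.294 CPM, a ratio of 1.80.

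**Figure D2:**
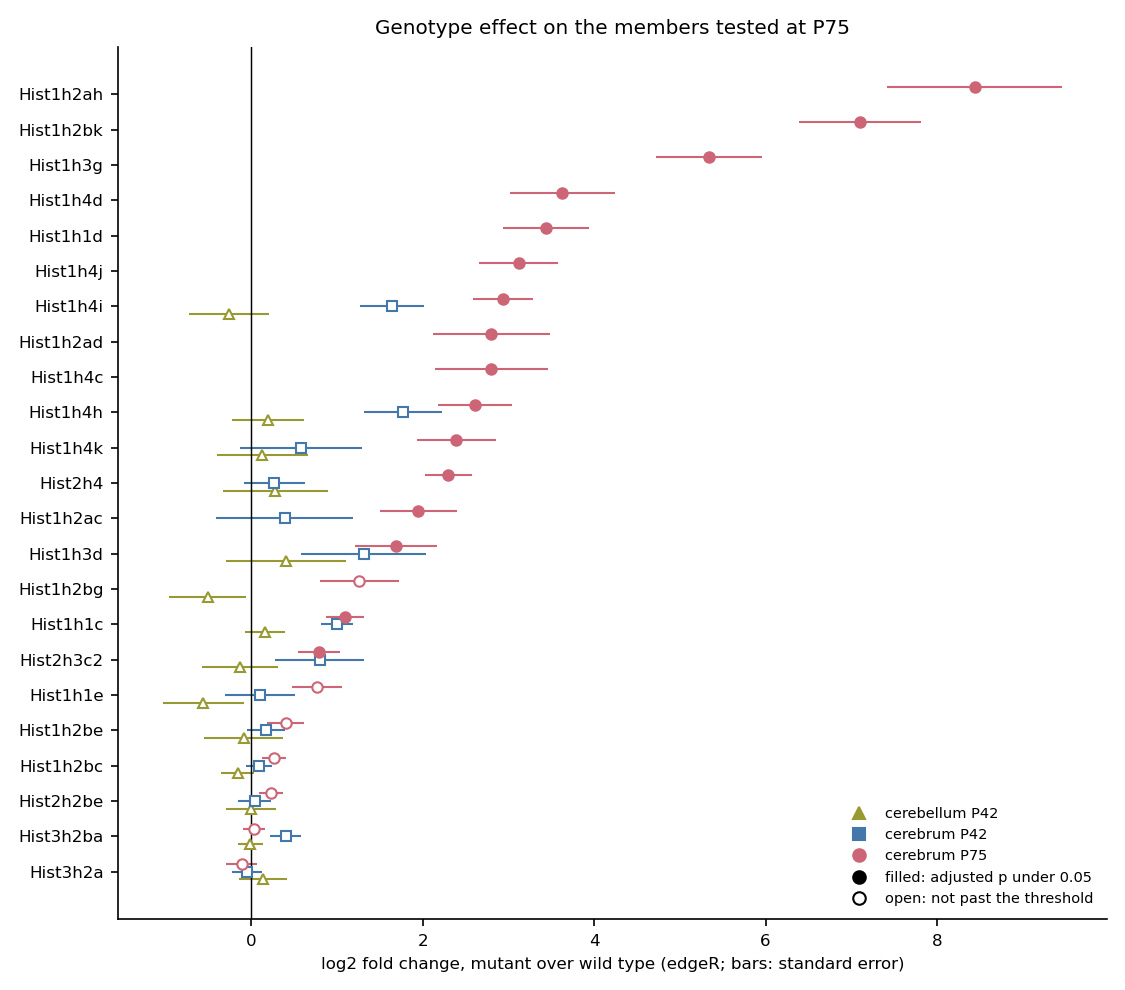
Log2 fold change of mutant over wild type with its standard error (horizontal axis) for the 23 members tested in cerebrum at P75, with their values in both P42 comparisons where tested; filled symbols passed an adjusted p under 0.05. The 16 filled circles all lie right of 0, from 0.79 (Hist2h3c2) to 8.44 (Hist1h2ah, whose wild types had 0 counts, so that its position depends on the fit's added count), and no P42 symbol is filled.

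Cluster 1 lies in 2 stretches on chromosome 13 of mm10. The first, from 21715763 to 22043676, holds 23 members, and the second, from 23531050 to 23934851, holds 31. At P75 the first stretch summed to 41.4 ± 23.4 CPM in mutants and 4.83 ± 1.60 in wild types, a ratio of 8.57. The second summed to 125 ± 45.9 against 61.6 ± 4.56 CPM, a ratio of 2.04, and it holds Hist1h1c and Hist1h2bc, which make up most of its level. In the first stretch 12 of 22 members with a count, and in the second 11 of 30, had all mutants above all wild types, against 6.71% of all genes with a count.

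**Figure D3:**
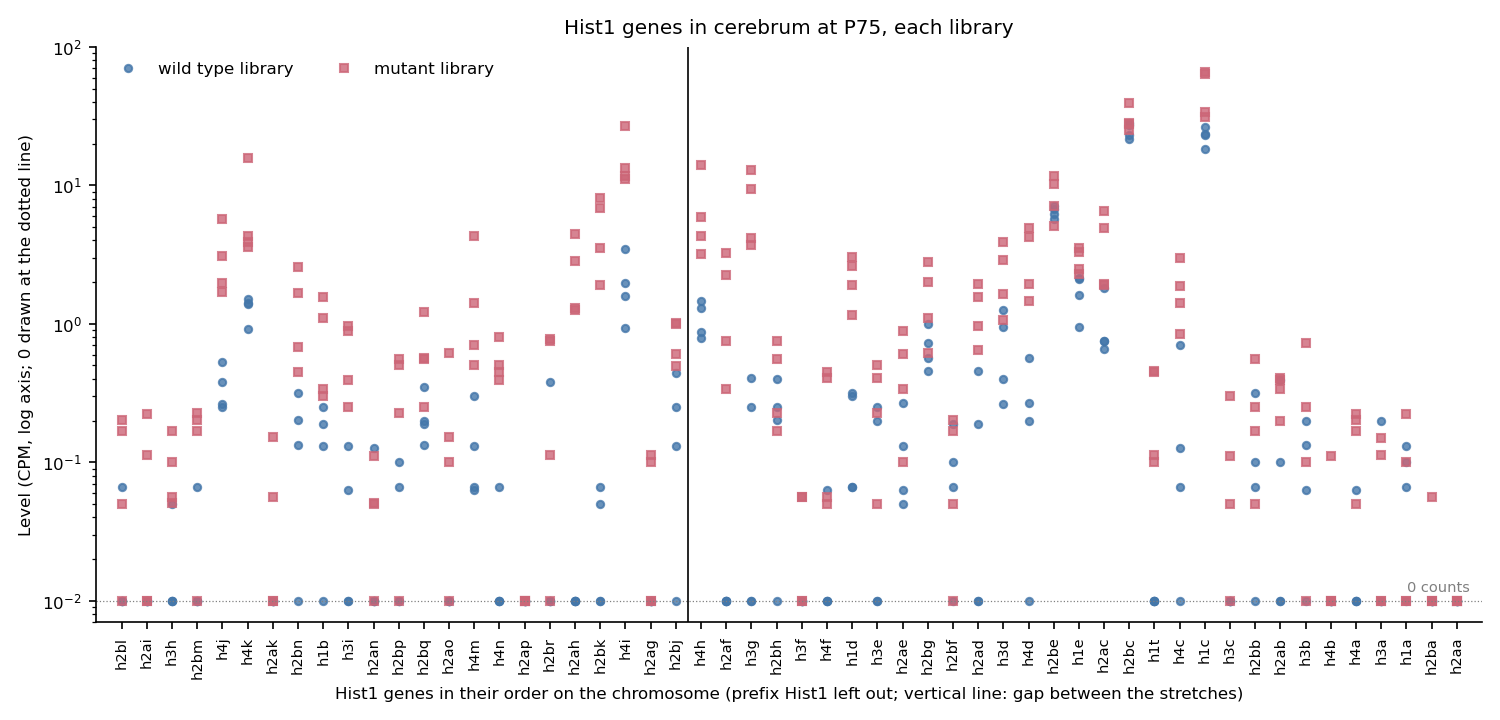
Level of each of the 54 Hist1 genes (vertical axis, CPM, log axis) in the 8 cerebrum libraries at P75, in chromosome order; circles are wild type and squares mutant libraries, and libraries with 0 counts are drawn on the dotted line. Members whose mutants stand clear of the wild types, such as Hist1h4i, Hist1h2bk and Hist1h3g, occur on both sides of the gap, next to members with few or no counts.

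H2A and H2B genes of cluster 1 often lie head to head. By RefSeq starts (GRCm38.p6), 8 such pairs have their starts within 250 bases of each other. Hist1h2ah on the minus strand and Hist1h2bk on the plus strand form 1 of them, and they were the only pair in which both genes had all P75 mutants above all wild types. In 3 pairs 1 gene did so and in 4 pairs neither. Of all genes with a count at P75, 6.71% did so. The counts of Hist1h2bn were 100 over the mutants and 11 over the wild types, and its partner Hist1h2ak held 4 and 0. Hist1h2ad held 96 and 12, and its partner Hist1h2bf held 8 and 6. The stretch of 177 bases between the starts of Hist1h2ah and Hist1h2bk is shown because it is the shared upstream sequence of 2 genes that moved together. Beside it stand the 250 bases before the starts of Hist1h3g, which also rose, and of Hist3h2ba, which was not called. Capitals mark, on either strand, the letters CCAAT, the TATA form TATAAA and the octamer ATTTGCAT.
Hist1h2ah and Hist1h2bk, chr13:22035644-22035820, plus strand: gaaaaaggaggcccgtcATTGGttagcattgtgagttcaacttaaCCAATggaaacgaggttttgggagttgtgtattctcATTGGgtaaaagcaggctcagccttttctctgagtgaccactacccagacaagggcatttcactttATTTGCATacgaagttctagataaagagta
Hist1h3g promoter, chr13:23535168-23535417, plus strand: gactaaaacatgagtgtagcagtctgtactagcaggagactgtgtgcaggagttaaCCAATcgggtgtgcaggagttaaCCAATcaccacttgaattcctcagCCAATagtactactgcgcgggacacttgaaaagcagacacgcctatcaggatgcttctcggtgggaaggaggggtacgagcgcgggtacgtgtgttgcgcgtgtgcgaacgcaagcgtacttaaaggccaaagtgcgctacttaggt
Hist3h2ba promoter, chr11:58948661-58948910, plus strand: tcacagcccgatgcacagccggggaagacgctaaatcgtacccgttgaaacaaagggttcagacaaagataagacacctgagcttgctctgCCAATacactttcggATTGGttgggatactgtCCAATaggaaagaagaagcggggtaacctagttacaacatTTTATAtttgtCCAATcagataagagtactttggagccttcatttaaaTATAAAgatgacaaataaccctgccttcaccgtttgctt
RefSeq promoters of 300 bases (250 before and 50 after the start) were matched for 61 of 67 members. CCAAT, the letters bound by NF-Y, was in 52 of 61, against 37.4% of all 32851 promoters; it was in 49 of 49 promoters of H1, H2A, H2B and H3 genes and in 3 of 12 of H4 genes. TATAAA, a form of the TATA box, was in 35 of 61 against 13.6% of all. ATTTGCAT, the octamer bound by POU factors such as Pou2f1, was in 7 of 17 H2A and 6 of 16 H2B promoters, in none of the other 28, and in 1.7% of all. A match describes the sequence and is not a measured site.

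The members were also summed by the 3′ end of the annotated transcript, and no difference between these sets was tested. The 21 genes whose transcript runs on past the stem-loop summed to 131 ± 40 CPM in mutants and 66.7 ± 6.71 in wild types, a ratio of 1.97. The 20 genes that end near the stem-loop summed to 18.2 ± 10.9 against 2.23 ± 0.765 CPM, a ratio of 8.14. The 16 that end within 40 bases of the stop codon without a stem-loop summed to 14.2 ± 10.3 against 1.76 ± 0.435 CPM, a ratio of 8.10. Sequence past their annotated end was not searched. The 10 with no match to the motif, which include Hist1h2bc and Hist2h2be, summed to 53.0 ± 13.6 against 35.2 ± 3.38 CPM, a ratio of 1.5. In each of the 4 sets the mutants lay above the wild types. The sums follow the abundant members, such as Hist1h1c at 48.7 CPM and Hist3h2ba at 15.6 CPM in the first set, and single genes did not follow their set's ratio. In that set Hist1h4d, Hist1h1d and Hist1h4i rose 12.4-fold, 10.8-fold and 7.68-fold. All mutants stood above all wild types in 10 of the 20 members with a count that run on past the stem-loop. The same held in 6 of 17 that end near it and in 7 of 13 that end early without it. It held in 2 of 10 with no match. Over all genes with a count at P75 the share was 6.71%. Counts per gene do not show where a transcript ended.

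**Figure D4:**
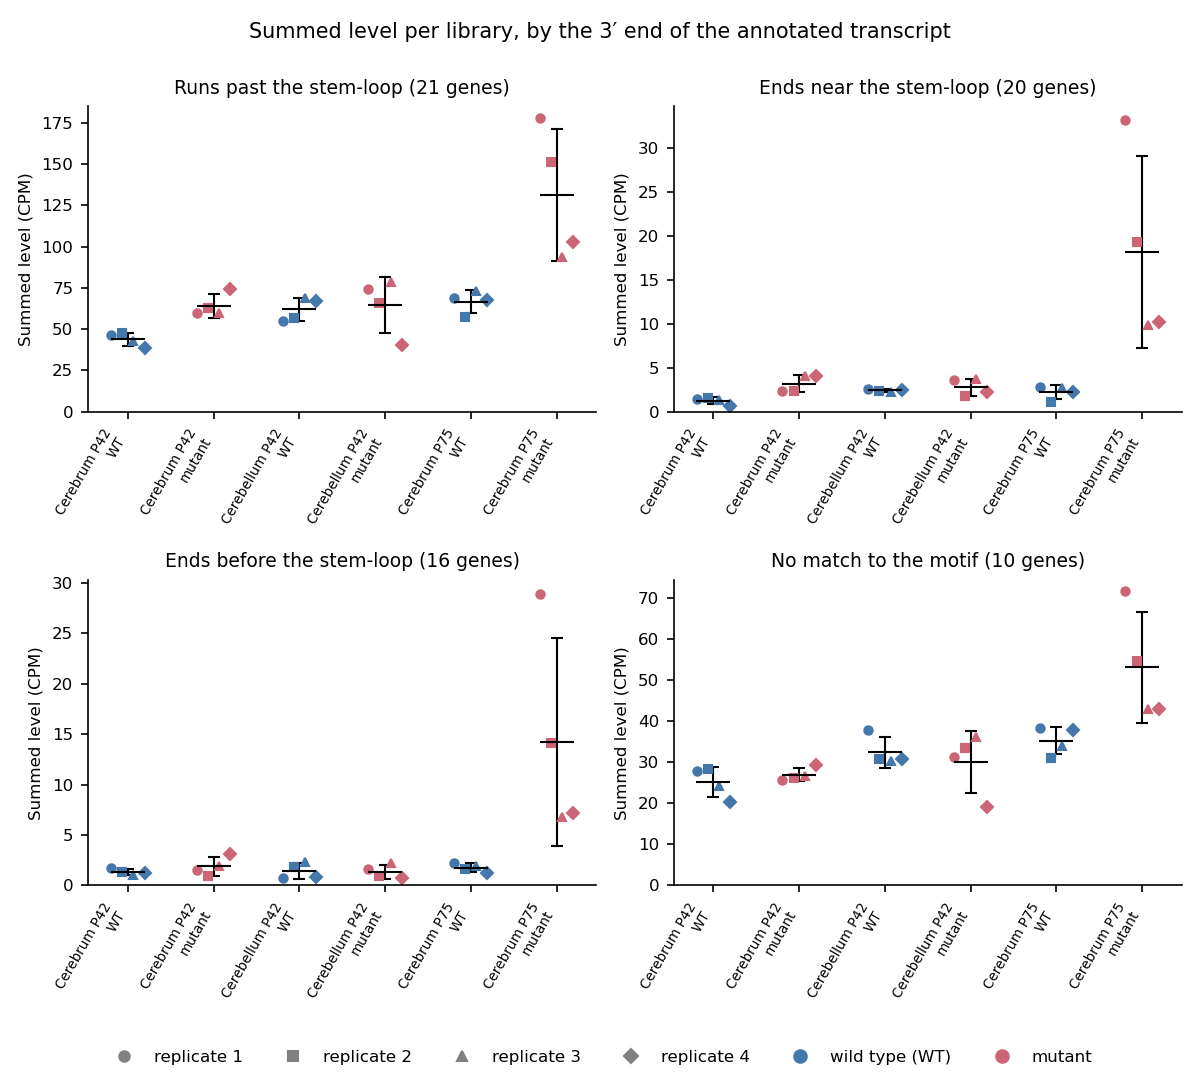
Summed level (vertical axis, CPM) per library by the 3′ end of the annotated transcript, in the 6 groups; symbols mark the replicate, and the bar and whiskers give mean and SD of 4 libraries. In P75 mutants the genes that end near the stem-loop reach 9.93 to 33.2 CPM, against 1.13 to 2.78 CPM in the wild types. The panel titled as ending before the stem-loop holds the 16 genes whose transcript ends within 40 bases of the stop codon without a match.

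The 4 P75 mutants did not carry the change equally. Of the 16 called members, 15 had both mutant 1 and mutant 2 above mutants 3 and 4, and 15 were highest in mutant 1. In the myeloid, interferon-stimulated and S phase sums, too, mutants 1 and 2 stood above mutants 3 and 4, though mutant 2 was highest in the myeloid and S phase sums. Not every list followed this order. Choroid plexus markers summed to 799, 606, 742 and 611 CPM in mutants 1 to 4. Cortical neuron markers ran the other way, at 968, 1070, 1200 and 1300 CPM. The summed level of 12 myeloid markers was 533, 588, 320 and 284 CPM in mutants 1 to 4 and 234 to 250 CPM in wild types, and 9 of 12 rose. The 10 interferon-stimulated genes summed to 1040, 898, 536 and 359 CPM against 33.9 to 42.9 CPM, and 10 of 10 rose. Genes of S phase and cell division summed to 222, 227, 191 and 183 CPM against 164 to 166 CPM. Of the 26 tested, 6 rose and E2f1, a transcription factor of the S phase programme, fell by 0.90 ± 0.16 on the log2 scale. Mcm6, part of the replicative helicase, rose by 0.97 ± 0.18, the proliferation marker Mki67 by 1.30 ± 0.27 and the topoisomerase gene Top2a by 1.54 ± 0.32. The median over the 26 was 0.57 against 0.003 over all genes. Markers of T cells summed to 7.46 to 9.03 CPM in mutants and 8.74 to 10.1 CPM in wild types, with Lck higher and Cd4 lower among the 3 tested. Markers of cortical neurons fell in 4 of 8 and rose in none. The part of these other genes and cells in the histone result was not tested, and in bulk tissue more cells of a type and more RNA per cell cannot be told apart.

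Factors that make and process histone mRNA moved little. Of 17 genes tested, Upf1, which acts in histone mRNA decay, rose by 0.28 ± 0.08, and Lsm11, part of the U7 particle that cuts histone precursors, fell by 0.41 ± 0.10 on the log2 scale (adjusted p = 0.0332 and 0.0157). Casp8ap2 differed by 0.25 ± 0.12 and Zfp473 by 0.67 ± 0.41, and neither passed. The median over the 17 was 0.01. Among 11 histone genes outside the clusters, whose mRNAs are polyadenylated as a rule, H3f3b, which encodes the variant H3.3, rose by 0.56 ± 0.10 (adjusted p = 0.00241) and H2afz, which encodes H2A.Z, by 0.37 ± 0.09 (adjusted p = 0.0168). H1fx differed by -0.34 ± 0.12 and H2afj by 0.35 ± 0.15, and neither passed. These 11 genes summed to 719 ± 17.3 CPM in mutants and 602 ± 55.6 in wild types, a ratio of 1.19, beside 2.05 for the clustered genes. Short RNAs of RNA polymerase II that lack a tail, such as spliceosomal RNAs and Terc, held 30, 10, 7 and 18 counts in the P75 mutants and 9, 8, 5 and 6 in the wild types, in 20 rows none of which passed the filter. Their scaled levels overlapped, at 0.349 to 1.67 and 0.252 to 0.568 CPM, with means of 0.883 ± 0.595 and 0.437 ± 0.144 CPM at a ratio of 2.02.

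In cerebrum at P42 none of 14 members tested was called by edgeR, where 0.0165% of 18205 genes were. An unadjusted p under 0.05 was found for 4 of the 14 members and for 2299 of the 18205 genes. The summed level of all members was 89.3, 92.1, 92.2 and 111 CPM in mutants and 77.2, 78.9, 69.3 and 61.1 CPM in wild types, so the groups did not overlap, with means at a ratio of 1.34. H1 (27.2 ± 4.84 against 14.4 ± 2.55 CPM) and H4 (9.30 ± 1.18 against 4.69 ± 0.809 CPM) did not overlap either, and H2A, H2B and H3 did. Hist1h1c had 20.4, 24.2, 26.1 and 29.7 CPM against 15.9, 13.2, 11.4 and 9.52, and differed by 1.0 ± 0.19 on the log2 scale, with an adjusted p of 0.230. Every mutant was above every wild type. Hist1h4i differed by 1.64 ± 0.37 (adjusted p = 0.275) and Hist1h4h by 1.77 ± 0.46 (adjusted p = 0.337), also with no overlap. DESeq2 called these 3 genes, with adjusted p of 0.00128, 0.0196 and 0.0404, where it called 1.3% of all genes. Hist1h4i and Hist1h4h passed the filter only through the mutants, as did 6 of the 14 members tested, so the filter favoured their direction. Hist1h1c would have been kept by the wild types alone. Hist3h2ba differed by 0.40 ± 0.18. Of 56 members with a count, 5 had all mutants above all wild types and 0 the reverse, against 2.48% of all genes with a count. Hist1h4f held 12 counts (8, 2, 1 and 1) against 1 (ratio 12.3, 95% interval 1.83 to 527) and Hist1h3i 15 against 2 (7.71, 1.79 to 69.5). Both were picked for few wild type counts, so their direction was set by that choice. The intervals hold for counting error alone.

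Other markers moved with the P42 cerebrum groups. Markers of thalamus, hypothalamus and midbrain summed to 938 ± 314 CPM in mutants and 294 ± 119 in wild types, without overlap, and were higher in 16 of 16 genes. Myeloid markers summed to 166 ± 10.3 against 231 ± 16.3 CPM, lower in the mutants without overlap. Markers of the choroid plexus stood at 306 ± 157 against 633 ± 469 CPM, of blood at 7.73 ± 2.42 against 24.2 ± 15.9 and of cortical neurons at 734 ± 607 against 1420 ± 336. The cortical sum was 1350, 1160, 163 and 265 CPM in mutants 1 to 4. Markers of thalamus, hypothalamus and midbrain summed to 679, 664, 1280 and 1130 CPM in the same libraries. Mutants 3 and 4 were the higher mutants in Hist1h1c and Hist1h4h and the lower in Hist1h4i. No gene of these lists was called, nor any of the lists of S phase, histone mRNA factors or unclustered histones, whose medians were -0.03, -0.07 and 0.30. The smallest p of these 3 lists belonged to Asf1b (0.99 ± 0.50), Cpsf2 (-0.31 ± 0.12) and H1f0 (0.30 ± 0.13). The part of these other cells in the P42 histone values was not tested.

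In cerebellum at P42 none of 14 members tested was called, where 0.0114% of 17616 genes were, and 0 had an unadjusted p under 0.05, as 819 of the 17616 genes did. DESeq2 called 0 as well. The summed level was 111, 102, 121 and 62.4 CPM in mutants and 95.9, 91.7, 104 and 101 CPM in wild types, and mutant 4 was lowest. The means of 99.1 ± 25.7 and 98.2 ± 5.45 CPM gave a ratio of 1.01. Hist1h1c differed by 0.16 ± 0.23, Hist1h4i by -0.26 ± 0.47, Hist1h4h by 0.19 ± 0.42 and Hist2h4 by 0.28 ± 0.61 on the log2 scale. Of 54 members with a count, 1 had all mutants above all wild types, against 1.27% of all genes with a count. Hist1h3c held 11 counts in the mutants (3, 4, 0 and 4) and 0 in the wild types, at least 2.92-fold higher. The groups met at 0, the gene was picked for this pattern, and the bound holds for counting error alone. None of the genes of the histone mRNA factor, unclustered histone and S phase lists passed, and Npat (0.34 ± 0.12), Cenpa (-0.85 ± 0.36) and Mcm7 (0.48 ± 0.18) had their smallest p. Markers of the choroid plexus were lower in the mutants without overlap, at 696 ± 451 against 1870 ± 428 CPM.

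Between tissues, wild type cerebrum held less of the linker histone Hist1h1c than wild type cerebellum at P42. Its counts were 281, 298, 216 and 183 in cerebrum and 301, 323, 382 and 462 in cerebellum, where libraries were shallower, and the log2 difference of cerebrum minus cerebellum was -0.88 ± 0.19 (adjusted p = 0.00499). It was the only 1 of 13 members called, where 30.5% of 17964 genes were. Hist1h4i (-1.14 ± 0.41), Hist3h2ba (-0.48 ± 0.19) and Hist2h2be (-0.46 ± 0.19) had adjusted p from 0.057 to 0.0842.

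The differences between genotype effects were tested as interaction terms. Between ages in cerebrum, P75 minus P42, 1 of 24 members was called, where 1.36% of 19273 genes were. This was Hist2h4, whose effect was larger at P75 by 2.04 ± 0.46 on the log2 scale (adjusted p = 0.0328), and it missed the threshold when any 1 of 11 of the 16 libraries was left out. Hist1h1d (3.23 ± 0.90, adjusted p = 0.0946) and Hist1h3g (4.96 ± 1.52, adjusted p = 0.134) came next, while Hist1h1c differed by 0.09 ± 0.33. For Hist1h2ah, at 0 or near it outside the P75 mutants, no standard error could be had. Age goes with time since tamoxifen and with the table of counts, and these cannot be told apart. All P75 libraries came from males, while P42 cerebrum held both sexes. The fit had no term for a genotype effect that differs by sex, so such an effect was not separated from age. Between tissues at P42, cerebellum minus cerebrum, 0 of 16 members were called by edgeR, where 0.0% of 19614 genes were. An unadjusted p under 0.05 was found for 3 of the 16 members and for 1213 of the 19614 genes. These 3 members were Hist1h4i (-1.90 ± 0.59), Hist1h1c (-0.85 ± 0.30) and Hist1h4h (-1.55 ± 0.62), each with an adjusted p of 0.732.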

How the data were processed

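PolyA-enriched RNA was sequenced from 24 libraries, per the labels' protocols. The deposited gene tables hold whole-number read counts per gene, 1 table for P42 and 1 for P75, so ages were compared only through each age's own wild types. HISAT2, DESeq2 and the mm10 build are named, without versions, in the submitters' processing notes; the annotation release, the read counter and its strand setting were not given in the sources used here.

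Counts were tested with edgeR 4.0.16 (R 4.3.3): TMM scaling, filterByExpr, the quasi-likelihood F test, two-sided, and Benjamini-Hochberg adjustment over all genes tested, with sex as a covariate wherever P42 libraries entered. A gene was called at an adjusted p under 0.05. Interaction terms tested differences between genotype effects. CPM are means ± SD over 4 libraries, and fold changes carry standard errors. Where the wild types held 0 counts, a bound against 3 counts over the group is given; with 1 to 3 counts, the ratio and its exact 95% interval. The code was tested on simulated counts.

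Members named are those called (the 15 of smallest p in a comparison), the 8 highest per kilobase, and those with 0 to 3 wild type and at least 10 mutant counts; of other genes, up to 4 of smallest p in a list. Members and lists were chosen with earlier results of these data known. Alternatives were DESeq2 1.42.0, other scalings and filters, a stricter threshold, no sex term, a replicate block and leaving out each library. Replicate numbers were shared between groups, and nothing in the labels says that they mark a shared litter, batch or day.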

Additional observations from a re-analysis of the deposited data

Results flagged for a closer look

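Several single libraries stood apart from the other 3 of their group, by the gap to the nearest one relative to the group's range. By chance about 5% of groups of this size would do so in any 1 measure, and several measures were looked through. In cerebrum at P42 mutant replicate 4 was highest, with 111 CPM over all clustered histone genes, and the highest mutant in H2B genes had 51.7 CPM. Among P75 wild types replicate 2 was lowest, with 91.0 CPM over all members. Among P75 mutants replicate 1 was highest in Hist1h4i at 26.8 CPM and in Hist1h4k at 15.9 CPM.

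The genotype effect on Hist2h4 was larger at P75 than at P42 by 2.04 ± 0.46 on the log2 scale, by an interaction term (edgeR, adjusted p = 0.0328).

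In genes outside the members, a signal was present in the P75 mutants and at 0 in their wild types. Gm11292, a processed transcript that lies 2968 bases downstream of Hist1h2ah, held 36 counts over the mutants (15, 15, 3 and 3), at least 10.5-fold higher against a floor of 3 counts over the wild type group. 4930558J22Rik, annotated antisense to Hist1h4b and overlapping it, held 12 counts (3, 2, 7 and 0), at least 3.49-fold higher. Without the strand setting of the counting, its reads and those of Hist1h4b cannot be told apart.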

How the results depend on the processing

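In P75 cerebrum 16 members and 14.3% of all genes were called, and without a filter on low counts 26 members and 9.62% of all genes. Leaving out 1 library gave 12 to 19 members and 7.62% to 15.6% of all genes. Both were lowest without mutant replicate 1. Of the 16, 11 stayed called under every alternative in which they passed the filter. The replicate block called 15 members and 20.2% of all genes at P75, where Hist2h3c2 missed the threshold. It called 0 members in both P42 comparisons, with 0.0439% of all genes in cerebrum and 0.00568% in cerebellum. For wild type cerebrum against cerebellum it called 0 in place of 1, as Hist1h1c missed the threshold. Replicate numbers are shared by label only. Every P75 library correlated best with its own number (correlations of 0.026 to 0.141), a hint from the data and not the design. In P42 cerebrum DESeq2 and the fit without a filter each called 3 members in place of 0, with 1.3% and 3.83% of all genes. Leaving out P42 cerebrum mutant replicates 3 and 4 together, chosen after seeing the data, moved the median log2 fold change from 0.39 to 0.54. In cerebellum at P42 and for the difference between tissues, the alternatives run called 0. Wild type cerebrum against cerebellum gave 4 with library size only, 3 without the sex term, and 1 to 2 when 1 library was left out. The difference between ages gave 1 member, against 0 at an adjusted p under 0.01, 5 with DESeq2 and 8 without a filter. It gave 0 to 1 when 1 library was left out. For both of these comparisons the share of all genes under each alternative is not given here. The cause of these shifts was not tested. Interaction fits with the block were not run. Depth limits what can be said of the members with few counts: those at 0 in both groups were not detectable here.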

Other observations

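Within 10000 bases of the members lie 50 other genes, of which 19 had at least 10 counts at P75. Among the 6 that code for proteins, Trim17 had all mutants above all wild types. Among the 13 others, 3 did and 0 showed the reverse. Over all genes with a count 6.71% had the mutants above, and these neighbours were limited to genes with at least 10 counts. Besides Gm11292 these were Gm20627 and Gm20632 of cluster 2, named here after their values were seen. Gm20627, a processed transcript 5405 bases downstream of Hist2h4, held 161, 105, 62 and 87 counts in the P75 mutants and 9, 11, 25 and 16 in the wild types, a ratio of 5.93. Gm20632, annotated antisense to Hist2h2aa2 and overlapping it, held 88, 72, 65 and 57 counts against 39, 32, 42 and 20, a ratio of 1.85. Hist2h2aa2 itself held 0 counts in all libraries.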
